A study of Mus musculus with 6 samples.

Results

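Oxidative phosphorylation genes encode the nuclear subunits of the respiratory chain and ATP synthase, and their transcripts were followed in ovaries of mice with and without a breast tumor. The members are the genes that the deposited annotation puts in the KEGG pathway Oxidative phosphorylation, without symbols beginning with Atp6, Atp4 or Atp12, which are proton pumps outside the inner mitochondrial membrane. This left 93 of 118 pathway genes, out of 19423 genes in the table. By symbol, 40 belonged to complex I (Nduf), 4 to complex II (Sdh), 9 to complex III (Uqcr and Cyc1), 21 to complex IV (Cox) and 15 to complex V (Atp5), and 4 (Lhpp, Ppa1, Ppa2 and Tcirg1) to none. Subunits encoded by mitochondrial DNA were not analysed here.

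Ovaries came from female balb/c-nude mice, an athymic strain that lacks mature T cells, and were taken on day 80. The tumor group was 3 samples from mice bearing tumors of subcutaneously injected MBA-MD-231 cells, as the labels spell the breast cancer line; the control group was 3 samples from mice of the same strain without tumors. The treatment label raises the last digit of the line's name by 1 from each tumor sample to the next, while the cell line label is the same for all 3. The labels mark the groups as genotypes, Tumor and Control, although they name no allele. The sources used here give neither the phase of the estrous cycle, nor whether libraries kept strand, nor whether every sample is a separate animal, so p-values measure only the spread between these samples. The whole ovary was sequenced, so fewer cells of a type and less RNA per cell cannot be told apart.

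The chain moves electrons from NADH through complex I and from succinate through complex II to coenzyme Q, then through complex III and cytochrome c to complex IV, where oxygen is reduced. Complexes I, III and IV pump protons, and complex V uses the gradient to make ATP. In the ovary, oocytes carry large stocks of mitochondria, and steroid-producing cells of the follicle wall and corpus luteum use mitochondria for the first step of steroid synthesis. Genes for nuclear subunits are known as targets of the transcription factors NRF1, GABP (an ETS factor), YY1 and the estrogen-related receptors (ERR).

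Promoters are shown for 1 gene of each of complexes I to IV that was lower in tumor ovaries at an adjusted p under 0.05 and held an NRF1 match, and for Cox8b, the gene with the highest fold change. Each runs from 250 bases before to 50 bases after the gene start, on the gene's strand, from RefSeq on GRCm38.p6. Capitals mark exact matches, on either strand, to GCATGCGC (NRF1) or CCGGAAG (ETS).
Ndufa11, chr17:56717512-56717811, plus strand: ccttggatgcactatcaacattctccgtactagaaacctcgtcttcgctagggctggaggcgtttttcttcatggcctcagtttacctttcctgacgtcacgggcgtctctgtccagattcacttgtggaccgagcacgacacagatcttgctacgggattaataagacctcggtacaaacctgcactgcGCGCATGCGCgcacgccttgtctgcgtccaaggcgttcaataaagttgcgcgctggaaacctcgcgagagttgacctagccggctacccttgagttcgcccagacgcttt
Sdhb, chr4:140961021-140961320, plus strand: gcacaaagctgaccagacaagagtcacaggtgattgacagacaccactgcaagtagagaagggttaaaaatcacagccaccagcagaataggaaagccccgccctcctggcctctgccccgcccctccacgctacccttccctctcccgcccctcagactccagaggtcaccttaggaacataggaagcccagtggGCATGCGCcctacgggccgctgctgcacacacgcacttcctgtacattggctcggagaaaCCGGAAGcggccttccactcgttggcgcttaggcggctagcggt
Uqcr11, chr10:80406772-80407071, minus strand: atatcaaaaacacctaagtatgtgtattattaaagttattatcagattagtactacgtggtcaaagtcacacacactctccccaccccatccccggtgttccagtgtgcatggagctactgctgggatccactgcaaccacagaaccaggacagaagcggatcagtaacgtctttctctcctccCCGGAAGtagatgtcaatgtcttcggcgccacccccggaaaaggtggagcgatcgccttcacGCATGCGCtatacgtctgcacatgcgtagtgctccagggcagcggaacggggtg
Cox6a1, chr5:115348909-115349208, minus strand: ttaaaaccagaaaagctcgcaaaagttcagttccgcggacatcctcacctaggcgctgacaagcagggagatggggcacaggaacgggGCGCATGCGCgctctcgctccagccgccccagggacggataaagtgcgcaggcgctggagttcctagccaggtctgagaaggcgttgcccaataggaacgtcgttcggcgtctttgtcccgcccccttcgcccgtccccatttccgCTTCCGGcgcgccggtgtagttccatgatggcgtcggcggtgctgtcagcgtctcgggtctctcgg
Cox8b, chr7:140900397-140900696, minus strand: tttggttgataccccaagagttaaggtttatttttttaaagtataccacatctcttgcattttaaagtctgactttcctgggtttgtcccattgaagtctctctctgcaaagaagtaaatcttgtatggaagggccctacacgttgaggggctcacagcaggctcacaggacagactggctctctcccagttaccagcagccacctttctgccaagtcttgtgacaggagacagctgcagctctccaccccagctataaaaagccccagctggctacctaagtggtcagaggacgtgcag
The first 4 hold an NRF1 match, which in Ndufa11 and Cox6a1 is a palindrome counted on both strands. Sdhb, Uqcr11 and Cox6a1 also hold an ETS match, and the Cox8b window holds none of the letters searched.

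Promoter windows were at hand for 74 of the 93 members. GCATGCGC occurred in 10 of them (13.5%), against 4.09% of all 15336 promoters. CCGGAAG occurred in 17 (23.0%), against 13.4% of all promoters. AAGATGGCG, searched for YY1, occurred in 7 (9.46%), against 2.21%, and CAAGGTCA, searched for ERR, in 4 (5.41%), against 1.25%. Of the 10 genes with a window and an adjusted p under 0.05, 5 held GCATGCGC, 5 held CCGGAAG and 0 held either of the others. A match describes the letters in the window and is not shown to be a bound site.

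Most oxidative phosphorylation transcripts were less abundant in tumor ovaries in every complex. The median difference was close to that of other genes with equally short transcripts. Members under 500 bases lay further below, with a median log2 fold change of -0.48 against -0.29 in other genes of that class. So did the 7 members of 2000 to 4000 bases, at -0.16 against -0.02, and the 1 longer member. The 93 members summed to 8890, 9232 and 10190 CPM (counts scaled to a common library size with TMM factors) in tumor libraries, against 12638, 10976 and 11855 CPM in control libraries. The 3 tumor sums were below all control sums. Of 90 members that passed the filter on low counts, 83 had a log2 fold change below 0, and the median was -0.37, against -0.02 over all 15787 genes tested. The 3 members that did not pass were Ndufb4b, Cox6a2 and Cox8c. Libraries did not overlap in 70 members, with tumor lower in 68 and higher in 2 (Sdha and Cox10); over all genes tested, 18.4% lay apart with tumor lower and 19.8% with tumor higher.

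At a Benjamini-Hochberg adjusted p under 0.05 in edgeR's quasi-likelihood test, 12 members fell and 0 rose. The 12 are 13.3% of the members tested, and over all genes tested 3.91% fell and 3.8% rose. At an unadjusted p under 0.05, 59 members were lower, against 15.2% of all genes, and 1 was higher. DESeq2 called 46 members lower, where it called 9.39% of all genes, and 1 (Cox8b) higher. In the authors' deposited table, 44 members were lower at q under 0.05, where 7.3% of all genes with a q were, and 1 was higher. The count of 12 rested on single libraries. It was 0 without tumor replicate 2, without tumor replicate 3, without control replicate 1 or without control replicate 3, with between 39 and 58 members at an unadjusted p under 0.05. Over all genes tested, 2, 0, 0 and 5 were then called lower, so that nearly all calls of other genes were lost as well. It was 15 without tumor replicate 1 and 25 without control replicate 2, where 1534 and 1086 of all genes were called lower. The median log2 fold change stayed between -0.43 and -0.31 in these fits.

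**Figure D1:**
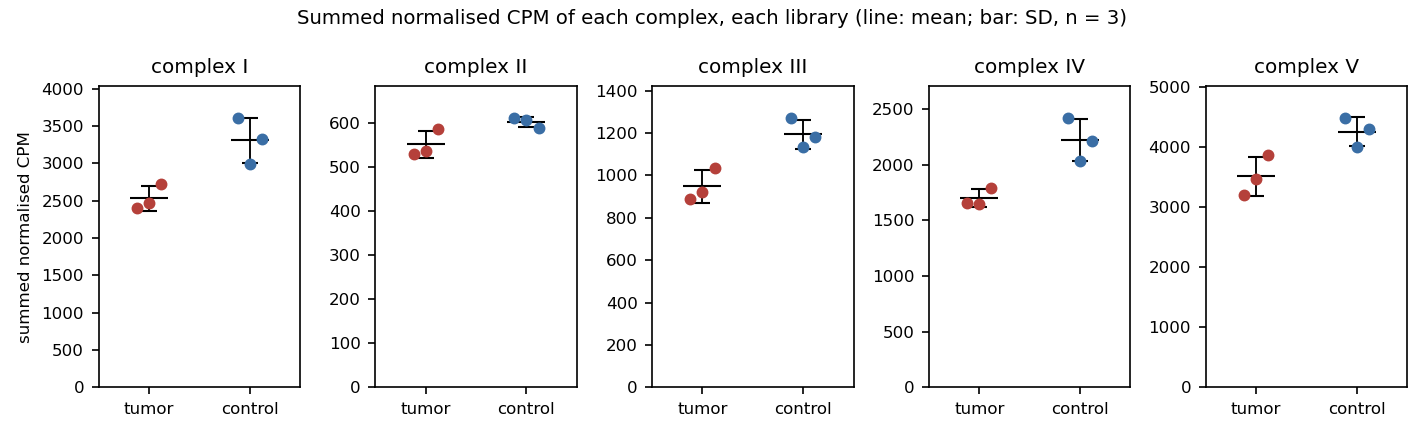
Summed TMM-normalised CPM of the members of each complex in each library (points), with the mean and SD of 3 libraries per group. Tumor libraries lie below control libraries in all 5 panels; the gap is smallest in complex II, where tumor replicate 3 (587 CPM) is just under control replicate 3 (588 CPM).

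Complex I, the NADH dehydrogenase at the entry of the chain, had 39 of 40 members tested, of which 5 fell, 37 had a log2 fold change below 0 and the median was -0.39. All 5 that fell were accessory subunits, which surround the catalytic core. Ndufa1, a small membrane-arm subunit (chrX:37187588-37191238), had 20.9, 19.2 and 24.6 CPM in tumor ovaries, against 43.0, 34.4 and 37.4 CPM in control ovaries. Its log2 fold change was -0.83 ± 0.14 (SE, edgeR adjusted p = 0.0366), and every tumor library lay below every control library. Ndufa13, a membrane-arm subunit also known as GRIM-19 (chr8:69894163-69903182), had 65.0, 65.8 and 70.8 CPM in tumor ovaries, against 118, 97.5 and 107 CPM in control ovaries. It had the smallest adjusted p of the members, 0.0339, at a log2 fold change of -0.68 ± 0.10. Ndufa11, another membrane-arm subunit (chr17:56717762-56724248), had 53.8, 58.1 and 57.3 CPM in tumor ovaries, against 88.0, 83.7 and 74.5 CPM in control ovaries. The tumor libraries were close to each other, and the log2 fold change was -0.54 ± 0.09 (edgeR adjusted p = 0.0374).

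Ndufa6, which binds the mitochondrial acyl carrier protein, had 72.9, 76.4 and 76.0 CPM in tumor ovaries, against 118, 98.2 and 99.4 CPM in control ovaries. Ndufb7, on the side facing the intermembrane space, had 48.8, 48.3 and 50.2 CPM in tumor ovaries, against 81.8, 64.3 and 67.4 CPM in control ovaries. Both were apart between the groups, with control replicate 1 highest, and log2 fold changes of -0.48 ± 0.10 for Ndufa6 (edgeR adjusted p = 0.0412) and -0.54 ± 0.11 for Ndufb7 (0.0429). Of the 30 accessory subunits tested, 29 had a log2 fold change below 0, and 24 had an unadjusted p under 0.05, the 5 included.

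The 7 core subunits, which carry the flavin and the iron-sulfur clusters, included none that fell at the adjusted threshold, and 5 of them had an unadjusted p under 0.05. Their median log2 fold change was -0.30 at a median effective length of 1491 bases, against -0.38 at 632 bases in the accessory subunits. The median difference from genes of like length, described below, was -0.08 in core and -0.04 in accessory subunits. Ndufs1, the largest core subunit, had 83.8, 86.1 and 105 CPM in tumor ovaries, against 91.2, 99.1 and 93.9 CPM in control ovaries. Ndufv1, which binds the flavin and NADH, had 89.9, 101 and 106 CPM in tumor ovaries, against 101, 92.5 and 98.8 CPM in control ovaries. The groups overlapped in Ndufs1 and Ndufv1, whose log2 fold changes of -0.05 ± 0.11 and 0.02 ± 0.09 (edgeR adjusted p = 0.793 and 0.897) turned sign when single libraries were left out. The highest log2 fold change in complex I was that of Ndufb4c, a short copy of Ndufb4, with 5.14, 2.35 and 4.47 CPM in tumor ovaries and 4.76, 1.87 and 4.04 CPM in control ovaries. It overlapped between the groups (0.17 ± 0.45, edgeR adjusted p = 0.838), and reads of the Ndufb4 copies may be split between them.

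**Figure D2:**
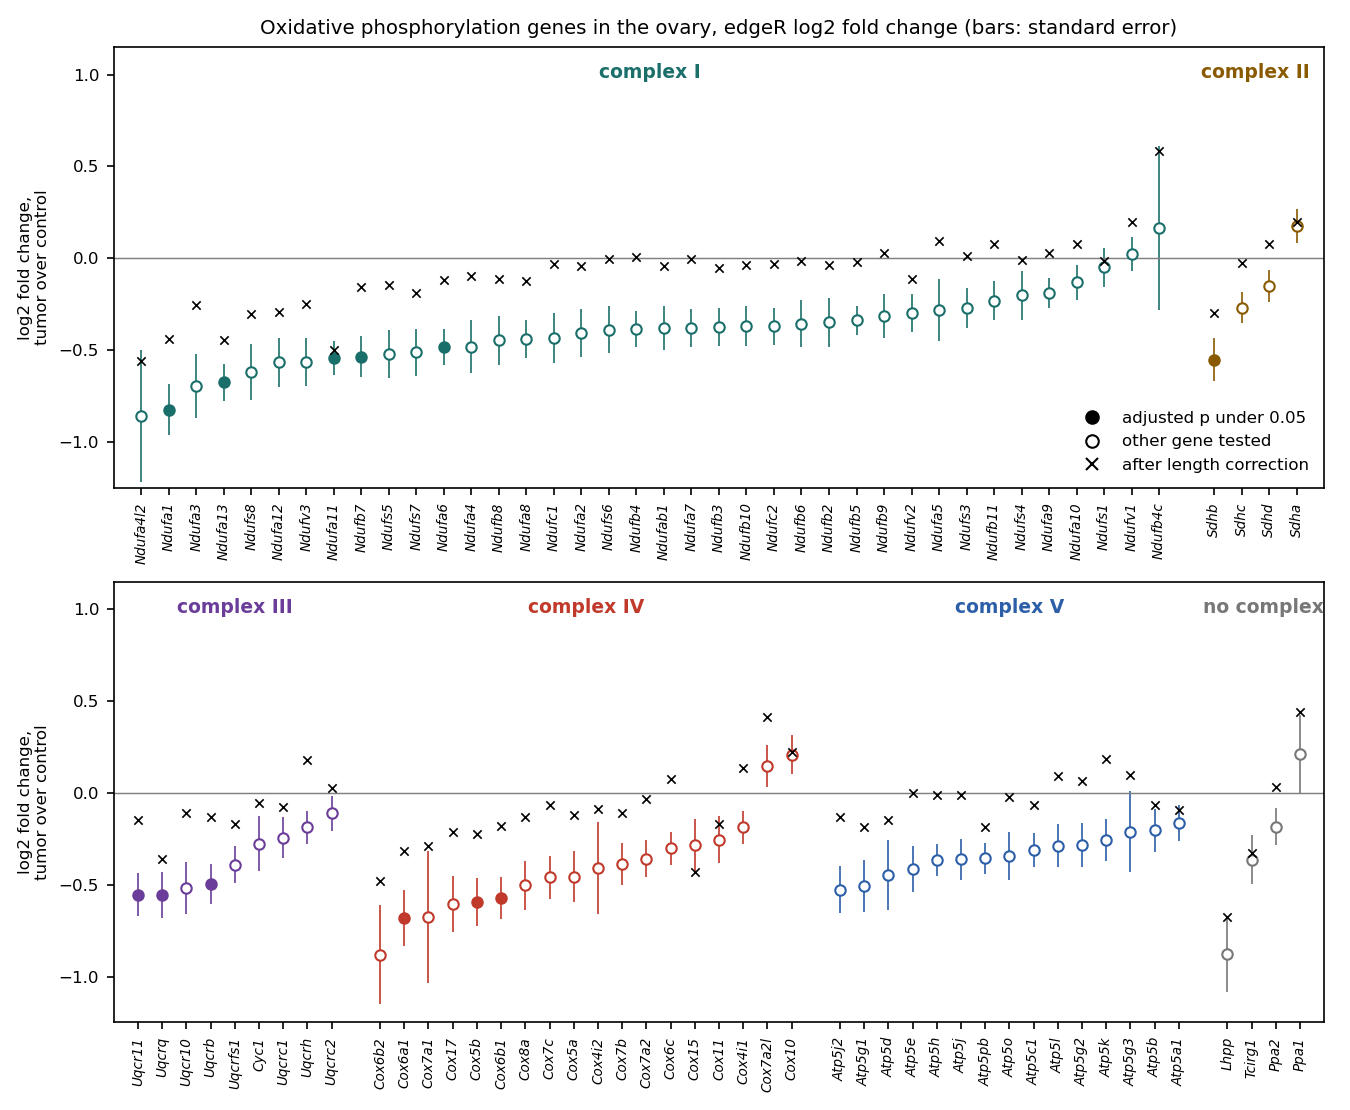
Log2 fold change, tumor over control, of tested members by complex, with the standard error derived from edgeR's F statistic (bars). Filled circles have an adjusted p under 0.05 and crosses give the log2 fold change after correction for transcript length. Most circles lie below 0 and most crosses nearer to it; Cox8b, at 2.54, is outside the range drawn, and it and 1 other member are left out.

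Complex II, succinate dehydrogenase, which also works in the citric acid cycle, had its 2 catalytic subunits on opposite sides of 0. Sdhb, the iron-sulfur subunit (chr4:140961271-140979198), had 88.2, 107 and 117 CPM in tumor ovaries, against 155, 150.3 and 153 CPM in control ovaries. It fell, with a log2 fold change of -0.55 ± 0.12 (edgeR adjusted p = 0.0451), and the tumor libraries spread more widely than the control libraries. Sdha, the flavin subunit that binds succinate, had 257, 247 and 272 CPM in tumor ovaries, against 223, 246 and 218 CPM in control ovaries. Its tumor libraries lay just above the control libraries, and it did not pass the test (0.18 ± 0.09, edgeR adjusted p = 0.241). Sdhc, a membrane anchor, had 114, 117 and 124 CPM in tumor ovaries, against 151, 137 and 140.4 CPM in control ovaries, apart but short of the threshold (-0.27 ± 0.08, edgeR adjusted p = 0.0893). The other anchor, Sdhd, overlapped between the groups. Sdhb has an effective transcript length of 1030 bases and Sdha one of 2810 bases. After the length correction described below, their log2 fold changes were -0.30 and 0.19, still on opposite sides of 0.

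Complex III, which passes electrons from coenzyme Q to cytochrome c, had all 9 members tested and all 9 below 0, with a median log2 fold change of -0.39. The 3 that fell were small subunits. Uqcr11 had 71.2, 71.7 and 81.0 CPM in tumor ovaries, against 124, 96.8 and 108 CPM in control ovaries (log2 fold change -0.55 ± 0.12, edgeR adjusted p = 0.0443). Uqcrb had 84.1, 73.4 and 91.2 CPM in tumor ovaries, against 124, 109 and 117 CPM in control ovaries (-0.50 ± 0.11, edgeR adjusted p = 0.0464). Uqcrq had 72.4, 74.6 and 87.7 CPM in tumor ovaries, against 131, 104 and 109.8 CPM in control ovaries (-0.55 ± 0.13, edgeR adjusted p = 0.0499). No library of these 3 genes overlapped between groups. Uqcrq overlaps Gdf9, the oocyte growth factor gene, in the annotation, and its counts exceeded whole reads by at most 0.06. Gdf9 had 148, 122 and 137 CPM in tumor ovaries, against 71.8, 72.4 and 96.3 CPM in control ovaries, which is the other direction. Whether Uqcrq and Gdf9 share reads was not tested.

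Among the core subunits of complex III, Uqcrfs1, the Rieske iron-sulfur protein, had 71.2, 72.0 and 82.6 CPM in tumor ovaries, against 106, 90.6 and 99.1 CPM in control ovaries (log2 fold change -0.39 ± 0.10, edgeR adjusted p = 0.0642). Uqcrc1 had 155, 191 and 195 CPM in tumor ovaries, against 222, 203 and 216 CPM in control ovaries, apart as well (-0.24 ± 0.11, 0.197). Cyc1, cytochrome c1, overlapped, with 112, 150.5 and 159.6 CPM in tumor ovaries and 171, 181 and 159 CPM in control ovaries (-0.28 ± 0.15, edgeR adjusted p = 0.255). Uqcrc2 overlapped too, with 171, 148 and 177 CPM in tumor ovaries and 180.1, 181 and 174 CPM in control ovaries (-0.11 ± 0.10, edgeR adjusted p = 0.475). The median log2 fold change was -0.52 over the 5 small subunits, of median effective length 497 bases, and -0.26 over the 4 core subunits, of median length 1436 bases.

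Complex IV, cytochrome c oxidase, had 19 of 21 members tested, with a median log2 fold change of -0.41. All 10 widely expressed subunits were below 0 without overlap between groups, and 3 of them fell. Over all genes tested, 18.4% lay apart with tumor lower and 3.91% fell. None of the 10 kept a call after the length correction described below. Their median difference from genes of like length was -0.10. Cox6a1 had 184, 239 and 258 CPM in tumor ovaries, against 401, 332 and 359 CPM in control ovaries (log2 fold change -0.68 ± 0.15, edgeR adjusted p = 0.0482). Cox5b, the zinc-binding subunit, had 90.3, 95.7 and 108 CPM in tumor ovaries, against 167, 125 and 152 CPM in control ovaries (-0.59 ± 0.13, edgeR adjusted p = 0.0484). Cox6b1, at the interface of the dimer, had 109, 101 and 117 CPM in tumor ovaries, against 178, 142 and 166 CPM in control ovaries (-0.57 ± 0.11, edgeR adjusted p = 0.041). Control replicate 1 was highest in each of the 3. Per length, Cox6a1 was the most abundant of complex IV, at 447 FPKM in tumor ovaries and 686 FPKM in control ovaries (means, n = 3 each).

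The other partners of tissue-restricted isoforms did not pass the test. Cox8a had 209, 185 and 225 CPM in tumor ovaries, against 331, 251 and 296 CPM in control ovaries (log2 fold change -0.50 ± 0.13, edgeR adjusted p = 0.0673). Cox7b had 77.8, 63.0 and 78.2 CPM in tumor ovaries, against 103, 88.3 and 95.4 CPM in control ovaries (-0.39 ± 0.12, edgeR adjusted p = 0.0839). Cox7a2 had 59.9, 52.1 and 60.3 CPM in tumor ovaries, against 78.8, 67.1 and 74.9 CPM in control ovaries (-0.36 ± 0.10, edgeR adjusted p = 0.0776). Cox4i1 was the least different of the 10, with 255, 265 and 259.9 CPM in tumor ovaries, against 318, 295 and 274 CPM in control ovaries (-0.19 ± 0.09, edgeR adjusted p = 0.212). Ndufa4, grouped with complex I by its symbol but now known as a subunit of complex IV, had 107, 83.2 and 103 CPM in tumor ovaries, against 152, 116 and 141 CPM in control ovaries (-0.48 ± 0.14, edgeR adjusted p = 0.0836). The 5 assembly and supercomplex factors had a median of -0.26; of these, Cox10, a heme A synthesis enzyme, lay apart with tumor higher (22.4, 23.9 and 25.0 CPM in tumor ovaries, against 19.6, 21.9 and 20.2 CPM in control ovaries).

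**Figure D3:**
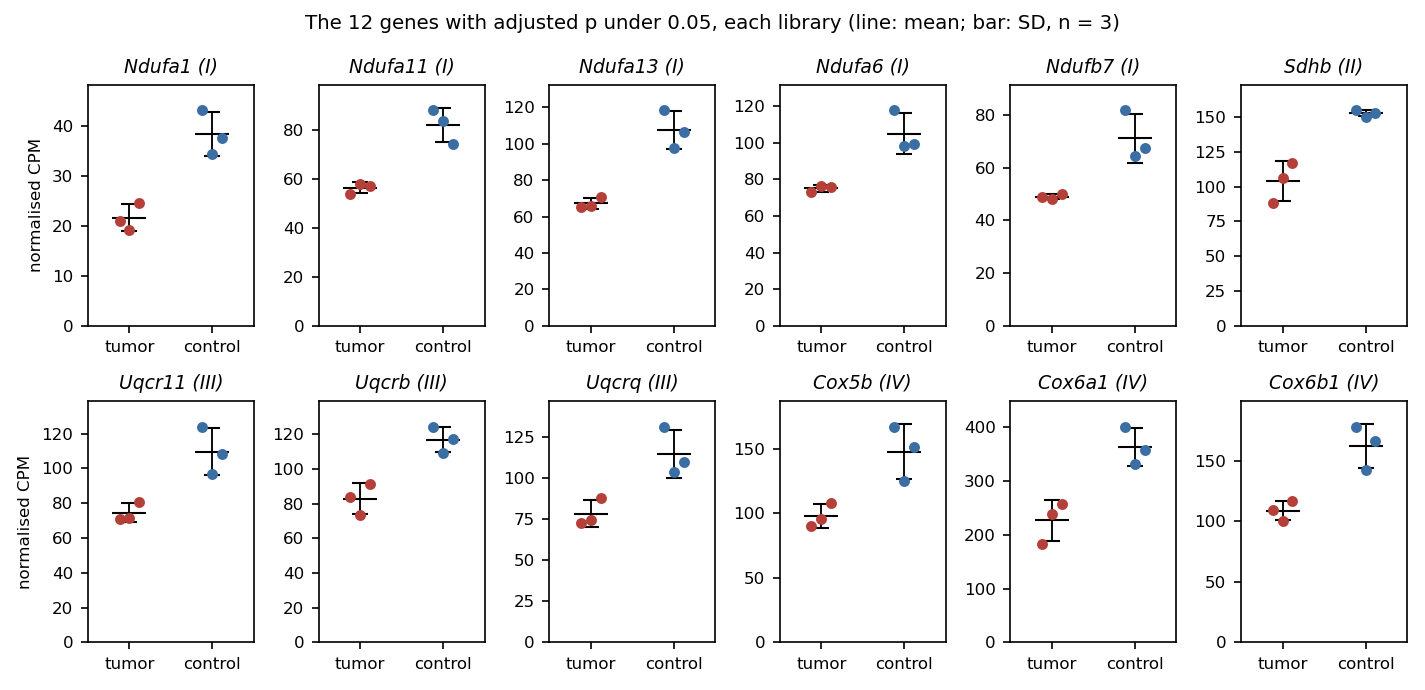
TMM-normalised CPM in each library (points) of the 12 genes with an adjusted p under 0.05, with the mean and SD of 3 libraries per group and the complex in parentheses; axes start at 0. In every panel the 3 tumor libraries lie below the 3 control libraries.

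Tissue-restricted isoforms were expressed at low levels. Cox8b, a subunit of heart, muscle and brown fat, had 8.99, 0.799 and 4.03 CPM in tumor ovaries, against 0.973, 0.695 and 0.700 CPM in control ovaries. Tumor replicate 2 lay within the control range, so the groups overlapped, and the log2 fold change of 2.54 ± 0.83 did not pass (edgeR adjusted p = 0.102). The sum of 8 white adipocyte markers had the same order of tumor libraries, at 7580, 684 and 3083 CPM in tumor libraries and 491, 698 and 544 CPM in control libraries, and 0 of 8 passed the test, with 7 at an unadjusted p under 0.05. With their mean as a covariate in the fit, the log2 fold change of Cox8b was -0.17. Cox8b and the markers were high in the same tumor libraries, so this fit cannot tell adipose tissue from another source with that pattern. The source of the Cox8b difference was not tested. Of 5 brown adipocyte markers, 2 passed the filter on low counts and 0 passed the test, with 0 at an unadjusted p under 0.05, and the list summed to 34.8, 19.7 and 15.5 CPM in tumor libraries, against 31.5, 34.5 and 25.7 CPM in control libraries. Among them, Ucp1 had at most 1 read in any library, and Elovl3, which did not pass the filter, had 4.78, 0.107 and 2.40 CPM in tumor libraries, against 0.162, 0.107 and 0.161 CPM in control libraries. Cidea had 21.3, 2.61 and 0.763 CPM in tumor libraries, against 13.2, 15.5 and 7.97 CPM in control libraries. For the other results too, adipose tissue was examined only through that covariate. With it the members' median log2 fold change was -0.35, and 25 members had an unadjusted p under 0.05 in edgeR, where 16.1% of all genes did. No gene of any kind passed edgeR's threshold in that fit, members included.

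Cox6b2, an isoform of testis, had 5.72, 7.30 and 5.56 CPM in tumor ovaries, against 13.9, 7.76 and 12.5 CPM in control ovaries (log2 fold change -0.88 ± 0.27, edgeR adjusted p = 0.0872). Ndufa4l2, a paralog of Ndufa4 known to be induced by hypoxia, had 3.69, 8.58 and 6.32 CPM in tumor ovaries, against 13.8, 8.13 and 11.7 CPM in control ovaries (-0.86 ± 0.36, edgeR adjusted p = 0.163). Control replicate 2 was lowest of the controls in both. Cox4i2, another isoform linked to hypoxia, had 2.23, 3.52 and 3.16 CPM in tumor ovaries, against 4.11, 3.80 and 3.93 CPM in control ovaries (-0.41 ± 0.25, edgeR adjusted p = 0.316). Cox7a1, of heart and muscle, had 0.883, 1.23 and 1.42 CPM in tumor ovaries and 1.68, 2.62 and 1.35 CPM in control ovaries (-0.68 ± 0.36, edgeR adjusted p = 0.251). Cox6a2 stayed under 1 CPM in all libraries, and Cox8c, of testis, did not exceed 0.108 CPM, under the limit of about 0.16 CPM that a count of 0 allows.

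Complex V, ATP synthase, had all 15 members below 0, with a median log2 fold change of -0.34. None passed edgeR's threshold, 9 had an unadjusted p under 0.05, and DESeq2 called 7 lower. Without control replicate 2, edgeR called 2. The smallest p-values were in the stalk and membrane parts. The 7 genes of these parts, the c ring left out, have a median effective length of 536 bases. The 5 genes of the F1 part, which include Atp5a1 and Atp5b, have one of 1118 bases. The median difference from genes of like length, described below, was 0.01 in the 7 and -0.10 in the 5. Atp5h, of the peripheral stalk, had 122, 127 and 138 CPM in tumor ovaries, against 168, 158 and 172 CPM in control ovaries (log2 fold change -0.37 ± 0.09, edgeR adjusted p = 0.054). Atp5j2, of the membrane part, had 111, 113 and 125 CPM in tumor ovaries, against 189, 142 and 172 CPM in control ovaries (-0.53 ± 0.13, 0.0546). Atp5pb, the stalk's b subunit, had 147, 136 and 158 CPM in tumor ovaries, against 190.3, 186 and 188 CPM in control ovaries (-0.36 ± 0.09, edgeR adjusted p = 0.0562). These 3 were apart between the groups. Atp5b, the catalytic beta subunit (553 FPKM in tumor ovaries and 609.7 FPKM in control ovaries, the highest mean over all 6 libraries), had 895, 968 and 1112 CPM in tumor ovaries and 1168, 1082 and 1176 CPM in control ovaries (-0.20 ± 0.12, edgeR adjusted p = 0.285). Atp5a1, the alpha subunit, had 622, 635 and 709.5 CPM in tumor ovaries and 758, 707 and 739 CPM in control ovaries (-0.16 ± 0.10, edgeR adjusted p = 0.306). Tumor replicate 3 fell within the control range in both.

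Among the 4 pathway genes in no complex, Lhpp, a phosphatase, had 30.3, 27.2 and 24.0 CPM in tumor ovaries, against 59.7, 35.6 and 54.5 CPM in control ovaries (log2 fold change -0.88 ± 0.21, edgeR adjusted p = 0.0536). It was named after its values were seen. The pyrophosphatases Ppa1 and Ppa2 had log2 fold changes of 0.21 and -0.19, and Tcirg1, a subunit of the lysosomal proton pump, one of -0.36.

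The members have short transcripts, and in these libraries the short transcripts of other genes were lower in tumor ovaries too. The median effective length (the transcript length available to a read) was 705 bases in members and 2842 bases over all genes tested. Among genes that are no member, the median log2 fold change was -0.29 under 500 bases, -0.34 from 500 to 1000, -0.19 from 1000 to 2000, -0.02 from 2000 to 4000 and 0.21 from 4000 bases upward. Members had -0.48, -0.38, -0.26 and -0.16 in the first 4 of these classes (27, 33, 22 and 7 genes), and Cox15, the 1 member of over 4000 bases, had -0.28. Of those other genes, 12.3%, 11.8%, 6.28% and 2.79% fell in the same classes. Spearman's rho of fold change and length was 0.40 across the 90 members and 0.37 across the 15697 other genes; genes share the libraries and are not independent replicates.

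**Figure D4:**
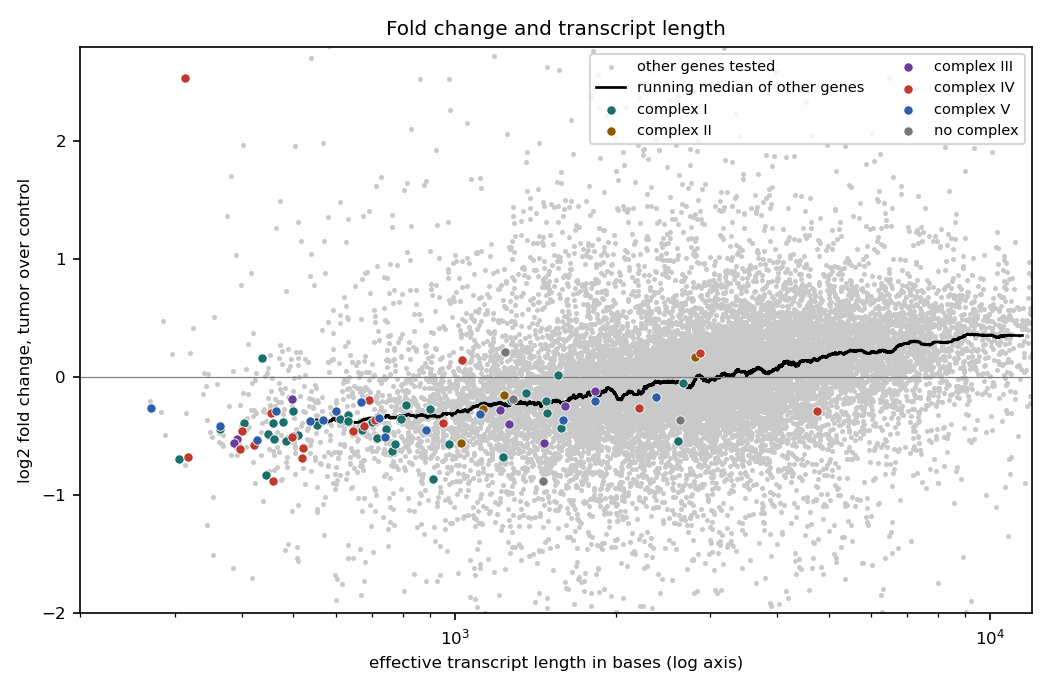
Log2 fold change, tumor over control, against effective transcript length (log axis), for members by complex (colour) and other genes (grey), with a running median of the other genes. The running median climbs with length. It is not drawn for the 200 shortest other genes and so starts above 500 bases. Where it is drawn, most members lie close to it. Cox8b stands at 2.54, far above the other members.

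Each member was set against the 200 other genes nearest to it in effective length. The median log2 fold change of these genes was -0.32, and the median over the members of the difference was -0.05, with 56 members below their genes of like length and 34 above. The median difference was -0.05 in complex I, 0.03 in complex II, -0.16 in complex III, -0.11 in complex IV and -0.03 in complex V. In members under 500 bases it was -0.14, with 20 of 27 below 0 and 7 above. Only 138 other genes tested lay in that class, so the 200 nearest genes of these members included longer ones. Over all members the median difference was 0.003 without tumor replicate 1 and -0.14 without tumor replicate 3. When the nearest genes were chosen by length and mean level together, an alternative added after seeing the data, it was 0.0003. A length trend was then removed from each library before the fit. With this correction the members' median log2 fold change was -0.06, 65 of 90 were below 0, and 2 of the 12 calls were left, Ndufa11 and Ndufa13; over all genes 1.3% were then called lower and 0.969% higher. At an unadjusted p under 0.05 there were 14 members lower and 3 higher, 17 in all, where 25.6% of all genes passed in either direction.

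Ndufa11 and Ndufa13 kept their calls after the length correction. Ndufa11 has an effective length of 2612 bases, where the median of genes of like length was -0.04 on the log2 scale, and its own was -0.54 before and -0.50 after the correction (edgeR adjusted p = 0.046). Ndufa13, at 1232 bases with -0.24 in genes of like length, had -0.68 before and -0.45 after the correction (edgeR adjusted p = 0.044). Over the 21 other fits their unadjusted p stayed under 0.05, while the adjusted p ranged from 0.00012 to 0.279 for Ndufa11 and from 1.12e-06 to 0.272 for Ndufa13, with 9 and 10 of the 21 under 0.05. Ndufa1 and Uqcrq also kept an unadjusted p under 0.05 in all 21. Sdhb and Cox6a1 had log2 fold changes of -0.30 and -0.32 after the correction, and Uqcr11, Uqcrb and Ndufa6 of -0.15, -0.13 and -0.12.

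The length trend was a property of single libraries as well as of groups. Across all genes tested, Spearman's rho of effective length with a library's deviation from the mean of all 6 was 0.20, 0.29 and 0.25 in tumor replicates 1, 2 and 3, against -0.40, -0.09 and -0.30 in control replicates 1, 2 and 3. The members' median deviation on the log2 scale was -0.25, -0.22 and -0.08 in tumor libraries, against 0.30, 0.06 and 0.20 in control libraries. Less the value of genes of like length it was -0.14, -0.05 and 0.06 in tumor libraries, against -0.01, 0.01 and 0.06 in control libraries. The groups were apart before this subtraction and overlapped after it. Whether the length trend arose in the RNA, in the libraries or in the ovary was not tested.

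**Figure D5:**
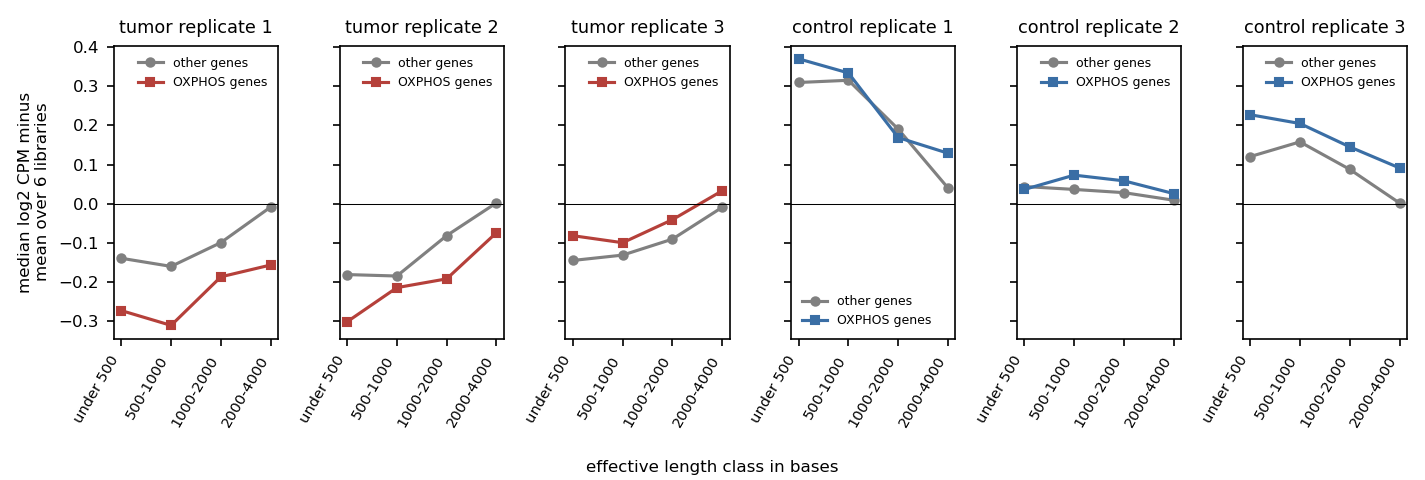
Median deviation of log2 CPM from the mean of the 6 libraries, in 4 classes of effective length, for members (coloured squares) and other genes (grey circles), with 1 panel per library. In the class under 500 bases members lie at -0.27, -0.30 and -0.08 in tumor libraries, against 0.37, 0.04 and 0.23 in control libraries. Other genes of that class lie on the same side of 0 in each panel. In tumor replicate 3 these other genes, at -0.14, lie below the members, and in control replicate 2 both lie at 0.04.

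The same direction was seen within genes that have a short and a long transcript. Of 42 members with several transcripts, 8 had leading transcripts that differed at least 1.3-fold in effective length, each with at least 5% of the pair's reads and the pair together with at least 100 reads a library on average. In 8 of 8 the shorter transcript had the lower log2 ratio of mean CPM, tumor over control, with medians of -0.57 for the shorter and -0.18 for the longer. In Ndufv3, a complex I subunit, the transcript of 439 bases took 37.4%, 31.1% and 34.4% of the pair's reads in tumor ovaries, against 49.5%, 41.1% and 50.1% in control ovaries. In Atp5j, of the ATP synthase stalk, the transcript of 440 bases took 37.3%, 35.3% and 39.7% in tumor ovaries, against 47.4%, 52.2% and 49.5% in control ovaries. The groups were apart in these pairs and in Ndufb8, and overlapped in the other 5. Reads of 50 bases are divided among transcripts by an estimate, and this comparison was chosen after seeing the data.

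Other sets of genes with short transcripts had medians on and above those of genes of like length. The 81 cytosolic ribosomal protein genes tested had a median of -0.02 on the log2 scale, where genes of like length had -0.34, and 1 fell. The 78 mitochondrial ribosomal protein genes had a median of -0.26, where genes of like length had -0.28, and 9 fell. The 39 proteasome subunit genes had a median of -0.22, where genes of like length had -0.22, and 0 fell, with 9 at an unadjusted p under 0.05. After the length correction the medians were 0.28, -0.03 and -0.02 in these sets, in that order. Of the 81 cytosolic genes, 76 were then above 0 and 5 were called higher, where 0.969% of all genes were. No test was made between these sets.

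Of 91 tested genes in 8 lists of genes that build, feed or regulate the chain, 4 fell (4.4%), close to the share over all genes tested, and 0 rose. Of 16 complex I assembly factors, Ndufaf3 fell, with 11.6, 10.6 and 10.8 CPM in tumor ovaries, against 16.9, 16.7 and 17.2 CPM in control ovaries (log2 fold change -0.62 ± 0.12, edgeR adjusted p = 0.041). Of 17 tested complex IV assembly factors, Coa3 and the copper chaperone Sco2 fell, with log2 fold changes of -0.72 and -0.63 (edgeR adjusted p = 0.0386 and 0.0498). Of 14 genes of electron carriers and coenzyme Q, Pdss2, which makes the side chain of coenzyme Q, fell, with 11.9, 15.0 and 16.1 CPM in tumor ovaries, against 28.6, 31.0 and 35.7 CPM in control ovaries (-1.15 ± 0.16, edgeR adjusted p = 0.0318). Pdss2 has an effective length of 3788 bases, and its log2 fold change after the length correction was -1.22 (edgeR adjusted p = 0.0343). The other 3 lost their calls under that correction, with log2 fold changes of -0.42 for Ndufaf3, -0.38 for Coa3 and -0.40 for Sco2 (edgeR adjusted p = 0.11, 0.103 and 0.171). None of the 4, 6 and 4 assembly factors of complexes II, III and V, the 16 citric acid cycle enzymes and the 14 regulators of mitochondrial biogenesis passed edgeR's threshold, with 1, 4, 2, 3 and 5 at an unadjusted p under 0.05, where 31.0% of all genes had one. Of the 14 biogenesis regulators 12 were above 0, with a median of 0.17 on the log2 scale, where genes of like length had 0.09; the median was 0.10 after the length correction. They included Ppargc1b, a coactivator, with 12.5, 8.37 and 9.27 CPM in tumor ovaries, against 5.51, 5.99 and 4.79 CPM in control ovaries (0.88 ± 0.22, edgeR adjusted p = 0.0596, and 0.55 after the length correction). The 2 below 0 were Esrra, which encodes an estrogen-related receptor, and Tfb1m, at -0.33 and -0.03 (edgeR adjusted p = 0.121 and 0.908). Nrf1 was at 0.36 (edgeR adjusted p = 0.0997). After the length correction Esrra was at -0.22 and Nrf1 at 0.32.

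Libraries held between 18278614 and 18482073 estimated counts in the tumor group, against 18804610 to 19238900 in the control group, and members took 0.936% to 1.01% of them in tumor libraries, against 1.09% to 1.21% in control libraries. Markers of the ovary were present in all libraries, with the 6 growing oocyte markers summing to 543.8, 427 and 483 CPM in tumor ovaries, against 284, 304 and 374 CPM in control ovaries; 5 of 6 were apart with tumor higher and 3 rose, 2 of them also after the length correction. The 6 luteal markers, of steroid-producing cells, summed to 2510, 7760 and 8094 CPM in tumor ovaries, against 14740, 13531 and 15257 CPM in control ovaries, and 2 of 6 fell. Among tumor libraries, replicate 1 had the lowest luteal and the highest adipocyte sum and stood apart by both. The oviduct markers ranged from 32.1 to 1860 CPM in tumor libraries and from 444 to 2078 CPM in control libraries, and 0 of 6 passed the test, with 0 at an unadjusted p under 0.05. The part of oocyte, luteal and oviduct RNA in the members' difference was not tested.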

How the data were processed

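Ovary RNA of 3 tumor and 3 control samples was read from the deposited gene tables. The submitters' processing notes name RSEM 1.2.12, Bowtie2 2.2.5, HISAT2 2.0.4 and the build GRCm38.p6. The authors deposited estimated counts and FPKM values per gene, per the file headers. The authors' deposited table of their own comparison holds log2 fold changes and q-values, and its sign was tumor over control in 98.1% of genes. A further 30 columns of per-sample values were not used. Estimated counts were whole in all libraries for 72 of 93 members, within 0.005 reads. The other 21 had counts that were not whole in at least 1 library. The largest part over a whole read was 0.01 in Cox10, 0.02 in Cox5a and 0.06 in Uqcrq, the smallest values. In the others it lay between 0.5 (Atp5pb) and 0.99 (Atp5h). Ndufa13, among the 12 called, had 0.82, with counts that were not whole in 4 libraries. Whether these 21 share reads with other genes or copies was not tested. The counting of strand is not given in the sources used here, and 21 members overlap another protein-coding gene, of which 3 (Ndufa1, Ndufa13 and Uqcrq) are among the 12 called.

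The members, gene lists and tests were chosen with earlier results of these data known. Counts were rounded, filtered with filterByExpr and compared with edgeR 4.0.16 (R 4.3.3) by its quasi-likelihood test with TMM scaling, robust dispersion and Benjamini-Hochberg adjustment over 15787 genes at 0.05. CPM are counts over the TMM-scaled library size, and errors are SD (n = 3) or the standard error of the fold change. For edgeR that standard error was derived as the absolute log2 fold change over the square root of the test's F statistic. Effective length is the count divided by FPKM, scaled to bases. The length correction subtracts, in each library, a lowess curve (span 0.4) of log2 CPM deviation on log2 length. Members named with values are those with adjusted p under 0.05, the 3 smallest p-values, the highest fold change and the highest mean FPKM of each complex, and fixed panels of tissue-restricted isoforms and core subunits; Cox7b2 of that panel is no member. 1 further named member is not reported here. Alternatives used DESeq2 1.42.0, limma 3.58.1, other scaling and filters, and libraries left out. The steps were tested on simulated data. Between 18278614 and 19238900 counts per library set the precision, and limits from a count of 3 cover counting error only.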

Additional observations from a re-analysis of the deposited data

How the results depend on the processing

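The members' median log2 fold change kept its sign in every alternative. It lay between -0.43 and -0.31 in all but the length-corrected fits, where it was -0.06404, or -0.06438 with the replicate block as well. With the length correction it was -0.036, -0.055 and -0.12 without tumor replicates 1, 2 and 3, and -0.093, -0.056 and -0.054 without control replicates 1, 2 and 3, alternatives chosen after seeing the data. The count of members called lower was 12. It was 46 by DESeq2, which also called 1 member higher, 12 with RLE scaling, 8 without the filter on low counts, 13 by limma on log2(FPKM + 1) and on log2(FPKM + 0.1), 2 with the length correction and 0 with the adipocyte marker covariate. Leaving out 1 library gave between 0 and 25, and between 0 and 2 with the length correction. With a replicate block the count was 0, as it was with the block and the length correction together, and 55 and 12 members then had an unadjusted p under 0.05. In both of these fits, as with the adipocyte covariate, 0 of all genes tested were called in either direction, so the count says nothing particular to the members. The labels' numbers were not taken to pair the samples: the correlations of deviations of same-numbered libraries were 0.237, -0.212 and 0.529, and not every library correlated best with its own number. The median difference from genes of like length was -0.05, between -0.14 and 0.0031 with 1 library left out, between -0.13 and 0.0050 with the length correction too, and -0.06 with 100 or 400 nearest genes.

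Some values changed sign. With the length correction the median log2 fold change of complex II was 0.025, that of Uqcrc2 0.027 and that of Cox4i1 0.13. With the replicate block and the length correction these were 0.0247, 0.024 and 0.14. With the adipocyte marker covariate the log2 fold change of Ndufb4c was -0.49 and that of Cox8b -0.17. With 1 library left out it ranged from -0.090 to 0.46 for Ndufb4c, from -0.16 to 0.027 for Ndufs1 and from -0.027 to 0.088 for Ndufv1. By limma, Ndufs1 was at 0.0083 with a pseudocount of 1 and at 0.0084 with one of 0.1. The cause of these changes was not tested. The largest unadjusted p that passed was 0.00385, or 0.00114 after the length correction.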
